A study of Mus musculus with 16 samples.

Results

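Imprinted genes are expressed from 1 parental copy, and the copy is chosen by DNA methylation laid down in the egg or the sperm. The methylated stretches are often CpG-rich promoters, so that the silent copy is methylated and closed and the active copy is open. The zinc finger protein ZFP57 binds a methylated hexamer in many of these stretches and keeps the mark, whereas the insulator protein CTCF binds the unmethylated copy at some of them. In islets, several imprinted genes act on growth or on insulin secretion, among them Igf2, Grb10, Plagl1, Gnas and Nnat.

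Accessible chromatin was examined at 10 imprinted genes outside the Kcnq1 domain, namely H19, Igf2, Peg3, Mest, Snrpn, Meg3, Plagl1, Grb10, Gnas and Nnat. The data were ATAC-seq peak lists, in which a transposase marks open DNA, from pancreatic islets of 8 inbred mouse strains, with 1 female and 1 male sample per strain and 50 islets per sample. The classical strains were 129S1_SvImJ (129), A_J (AJ), C57BL/6J (B6), NOD_ShiLtJ (NOD) and NZO_HlLtJ (NZO), and the wild-derived strains were CAST_EiJ (CAST), PWK_PhJ (PWK) and WSB_EiJ (WSB). No treatment was named in the labels, and the age of the mice and the number of mice behind a sample were not given in the sources used here, so the spread within a strain, which is that of 1 female and 1 male, may be partly technical. Because each mouse was inbred, its parental copies carry the same sequence and cannot be told apart in these data.

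Overlapping or touching peaks of the 16 lists were merged into 347712 autosomal regions. Of these, 116 overlapped a member gene or the 3 kb upstream of it, and 14 of the 116 had a peak in all 16 samples. Among the 10 genes, 9 had at least 1 region and 7 had a region shared by all samples. The share of regions present in all samples was 12.1% for the imprinted genes and 11.8% for all autosomal regions. Values below are scaled signals, meaning the summit signal of a peak divided by the sample's median over the 40940 regions shared by all 16 samples, and a value of 0 means that no peak was listed and not that the site was closed.

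The samples differed in ways that touch these values. The WSB female had the longest list, with 167051 autosomal peaks, and the AJ male the shortest, with 77887. The wild-derived lists held at least 121407 peaks each. The classical lists held at most 117672, apart from the NZO male with 141307. The PWK male had the lowest median signal over shared regions, 32, beside 55 to 136 in the others, and its scaled values were divided by this 32. Its peaks also had the lowest median −log10 p, 1.797, beside 3.098 to 4.281. The study describes sequencing depth by a mean, and totals of the single libraries were not used here, so the precision that depth gives each value is unknown. The difference in centred log2 signal between the most and the least GC-rich bins of shared regions ran from -0.049 in the AJ male to 1.9 in the NZO male, and it was 1.545 in the 129 female. The strain fits are therefore given also with centring within 20 bins of GC content where that changed a call. Of the 8 beta cell markers, 6 had a peak at their start in all samples, and the 2 others were G6pc2 and Ins2, whose annotated start lies far upstream of its peak. Summed over their start regions, beta cell markers ran from 10.6 to 15.4, other endocrine markers from 4.69 to 9.33, duct markers from 1.15 to 2.45, leukocyte markers from 0 to 2.49, acinar markers from 0.159 to 2.04, mesenchymal and stellate markers from 0 to 1.02, endothelial markers from 0 to 0.6 and neuronal and glial markers from 1 to 2.62. The duct, leukocyte, acinar and endothelial sums were all highest in the NZO male. In bulk samples, fewer cells of a type and less accessibility per cell cannot be told apart. Reads of every strain were aligned to mm10, the B6 genome. The study also aligned them to individualized genomes, found small differences and used the mm10 alignments. The part of mapping in low or missing values of the other strains was not tested here.

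The sequences under the summits are shown first, because imprinted control elements are recognised by their CpG content and by the motifs of their readers. The first set holds the 200 bases around the B6 female summit of the most accessible shared region of Snrpn, Plagl1, Grb10, Gnas and Nnat, and around the B6 female promoter summit of Peg3, all on the plus strand of mm10. Capitals mark the ZFP57 hexamer TGCCGC or its reverse complement GCGGCA.
Snrpn, chr7:60005005-60005204: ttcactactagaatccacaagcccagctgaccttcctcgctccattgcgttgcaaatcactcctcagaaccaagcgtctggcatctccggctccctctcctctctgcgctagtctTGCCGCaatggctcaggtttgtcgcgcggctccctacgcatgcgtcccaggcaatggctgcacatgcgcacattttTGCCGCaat
Plagl1, chr10:13090684-13090883: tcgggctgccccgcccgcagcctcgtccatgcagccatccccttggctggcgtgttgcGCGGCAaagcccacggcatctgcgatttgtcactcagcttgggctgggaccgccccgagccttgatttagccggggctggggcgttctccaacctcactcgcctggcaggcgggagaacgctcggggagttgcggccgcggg
Peg3, chr7:6728488-6728687: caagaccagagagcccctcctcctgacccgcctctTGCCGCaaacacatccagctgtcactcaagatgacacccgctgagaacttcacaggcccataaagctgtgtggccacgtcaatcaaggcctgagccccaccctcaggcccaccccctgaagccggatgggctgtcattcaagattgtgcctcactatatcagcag
Grb10, chr11:12025834-12026033: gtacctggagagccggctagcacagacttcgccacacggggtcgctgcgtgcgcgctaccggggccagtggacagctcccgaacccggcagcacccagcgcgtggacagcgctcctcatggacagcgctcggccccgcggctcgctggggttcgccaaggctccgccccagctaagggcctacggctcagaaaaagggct
Gnas, chr2:174327653-174327852: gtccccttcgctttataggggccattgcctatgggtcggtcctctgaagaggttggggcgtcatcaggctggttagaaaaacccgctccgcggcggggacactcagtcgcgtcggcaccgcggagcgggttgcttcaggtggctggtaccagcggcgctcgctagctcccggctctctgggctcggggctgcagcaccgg
Nnat, chr2:157561276-157561475: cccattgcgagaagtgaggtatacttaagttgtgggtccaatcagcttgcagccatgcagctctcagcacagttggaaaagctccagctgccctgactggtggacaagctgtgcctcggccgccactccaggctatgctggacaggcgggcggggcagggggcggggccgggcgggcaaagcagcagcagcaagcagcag

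The Snrpn window held 2 hexamers, the Plagl1 and Peg3 windows 1 each, and the Grb10, Gnas and Nnat windows 0. Over the windows of the same length at all 40940 shared regions, 7.07% held a hexamer on either strand, so matches in this set are a description and not evidence of binding. CpG dinucleotides numbered 21 in the Grb10 window, 20 in the Plagl1 window, 19 in the Gnas window, 13 in the Snrpn window, 8 in the Nnat window and 5 in the Peg3 window, beside a median of 3 over all shared regions. The GC content of these windows lay between 57% for Snrpn and 70.0% for Grb10, beside a median of 50%. The Gnas window follows the B6 female alone. The median Gnas summit over the 16 samples, at 174327452, lay outside it, and 11 samples had a summit within 50 bases of that median. None of the 6 windows held the CTCF core motif, searched on both strands, which was present in 1.95% of all windows. The B6 female summit windows of the Meg3 start region and the main Mest region, not shown, each held 0 hexamers and 0 CTCF cores. They had 12 and 11 CpG dinucleotides.

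**Figure D1:**
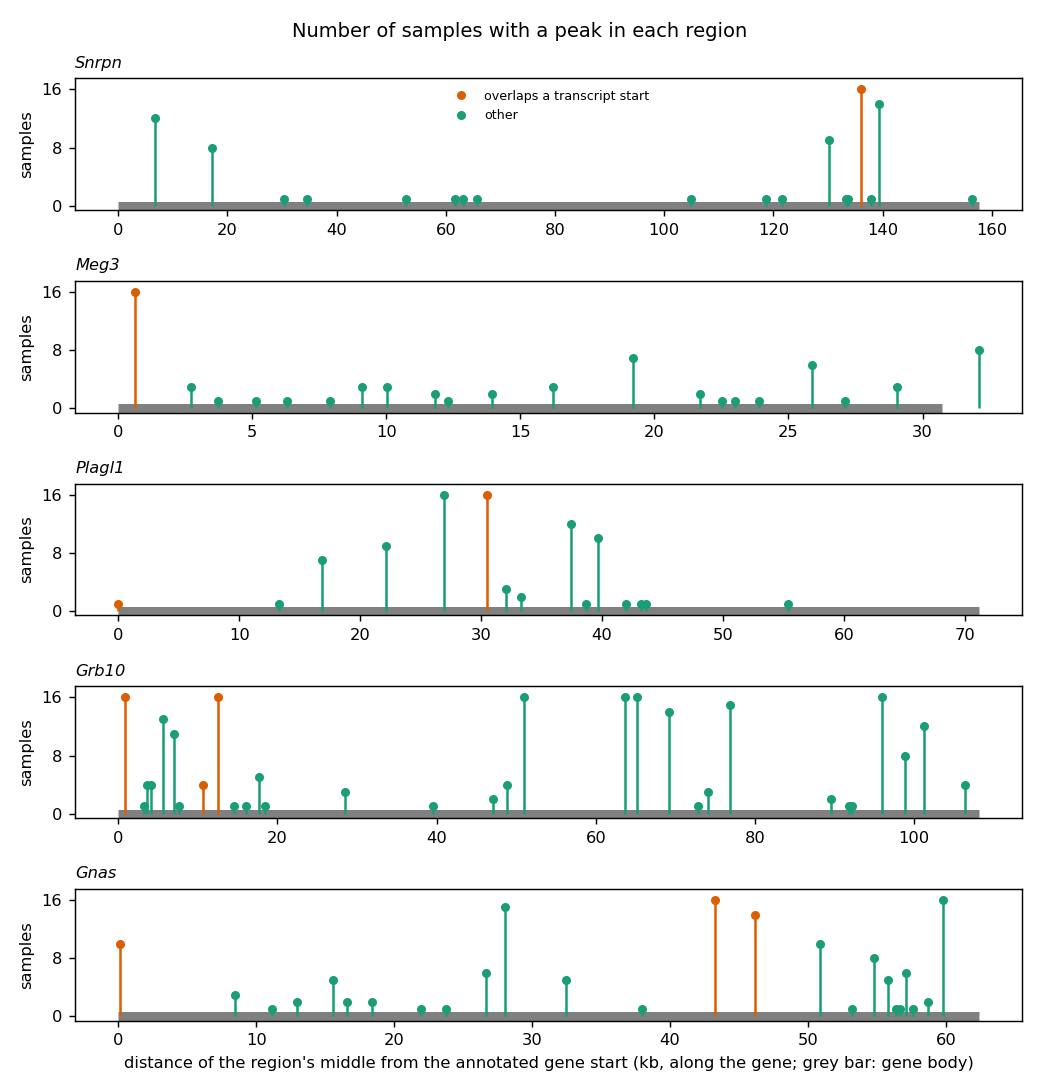
Number of samples with a peak (vertical axis, 0 to 16) in each merged region, by the distance of its middle from the annotated start of the gene (horizontal axis, kb along the gene), for Snrpn, Meg3, Plagl1, Grb10 and Gnas. Orange stems are regions that overlap an annotated transcript start, and the grey bar is the gene body. The Snrpn and Plagl1 regions present in all 16 samples lie far inside the annotated genes, and Grb10 has 6 such regions.

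Igf2 and H19, the paternally expressed growth factor and the maternally expressed noncoding RNA that share enhancers, were nearly without peaks. No region overlapped Igf2 (chr7:142650766-142666816, minus strand) or the 3 kb upstream of it in any of the 16 samples. The nearest region called in all samples was 5605 bases beyond that window, at chr7:142675422-142680624 over Ins2, where the scaled signal was 0.886 ± 0.396 (SD, n = 16).

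H19 (chr7:142575529-142578143, minus strand) had 1 region, chr7:142580200-142580799, which lay 2057 to 2656 bases upstream of the gene, where its methylated control region is known to be. A peak was listed there in 3 of 16 samples, at 0.382 in the NZO male, 0.16 in the CAST female and 0.123 in the WSB female. These 3 came from lists that were among the longer ones, with 141307, 140841 and 167051 peaks. The nearest other region, chr7:142581800-142581999, lay 656 bases beyond the 3 kb and was listed in 1 sample. Within the 3 kb upstream of H19, to which the search was limited, the CTCF core was found at 2 positions, and both fell inside chr7:142580200-142580799. They are shown because CTCF at this element insulates Igf2 from its enhancers. Capitals mark the core, which is read here on the minus strand.
H19 site a, chr7:142580302-142580331: tattgtactGCCACCACGCGGcatcgtctg
H19 site b, chr7:142580757-142580786: gagtatgctGCCACCGCGCGGtagcatccg

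The cores began 2168 and 2623 bases upstream of H19, and at site a the end of the core overlapped a ZFP57 hexamer. Neither site had a peak in both samples of any strain.

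Mest, a paternally expressed gene of the alpha/beta hydrolase family, had no peak over any of its 3 RefSeq promoter windows in any sample. Its main region, chr6:30736977-30737276, lay in an intron of the annotated gene and 774 to 1074 bases upstream of the nearest downstream RefSeq start. A peak was listed there in 15 of 16 samples, all but the PWK female, with a mean scaled signal of 0.334 over the 16 samples and a highest value of 0.552 in the 129 female. The PWK male, at 0.469, was among the higher samples, so the absence was not shared by both PWK samples. The strain lists filtered for reproducibility between the sexes held the region in 1 of 8 strains.

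Snrpn encodes a paternally expressed spliceosomal protein, and its promoter lies in the imprinting center of the Prader-Willi domain. It had 18 regions, of which 13 were listed in a single sample, 4 in several and 1 in all 16. The shared region, chr7:60002800-60005524, overlapped a start of Snrpn and of the overlapping Snurf, and the summits of all 16 samples lay within 50 bases of their median, 3 bases from an annotated Snrpn start. Its scaled signals in the female and the male were 1.1 and 1.91 in 129, 1.6 and 1.8 in AJ, 1.37 and 1.35 in B6, 1.83 and 1.57 in NOD, 1.32 and 1.02 in NZO, 1.49 and 1.53 in CAST, 1.19 and 1.91 in PWK, and 1.21 and 1.3 in WSB. The strains overlapped almost throughout, and the strain means differed by 1.46-fold between NOD and NZO, the highest and the lowest on the log2 scale. Strain was not past the threshold in limma's F test (adjusted p = 0.575). The Snrpn region held 10 ZFP57 hexamers, the most after Peg3 among the 14 shared regions.

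Meg3, the maternally expressed noncoding RNA of the Dlk1-Dio3 domain, had 21 regions and 1 shared by all samples, its start region at chr12:109540093-109543198. The scaled signals there were 1.17 and 0.899 in the 129 female and male, 0.369 and 0.945 in AJ, 0.821 and 0.627 in B6, 0.767 and 0.634 in NOD, 0.802 and 0.709 in NZO, 0.896 and 1 in CAST, 0.726 and 0.969 in PWK, and 0.651 and 0.784 in WSB. All 7 pairs of neighbouring strains in the order of the means overlapped, and strain was not past the threshold (limma adjusted p = 0.511). The median summit lay 2013 bases into the gene and 746 bases downstream of the nearest annotated Meg3 transcript start.

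The regions along the Meg3 body, by contrast, were listed unevenly. In all, 16 regions of Meg3 had a peak in the 129 female, 12 in the CAST female and 11 in the CAST male, whereas the 129 male had 1 and the samples of AJ, B6, NOD and NZO had 1 or 2. PWK had 4 in the female and 6 in the male, and WSB 4 and 2. At chr12:109559009-109561368, an exonic region listed in 7 samples, the scaled signal was 0.397 in the 129 female, 0.208 and 0.118 in CAST, 0.306 and 0.281 in PWK, and 0.255 and 0.136 in WSB. The wild-derived lists were longer than all classical ones but that of the NZO male, and the part of list length here was not tested. The female and the male of 129 differed here, and the widest peak of the 129 female, 105772 bases, exceeded that of every other sample, so strain and sample cannot be told apart for 129.

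**Figure D2:**
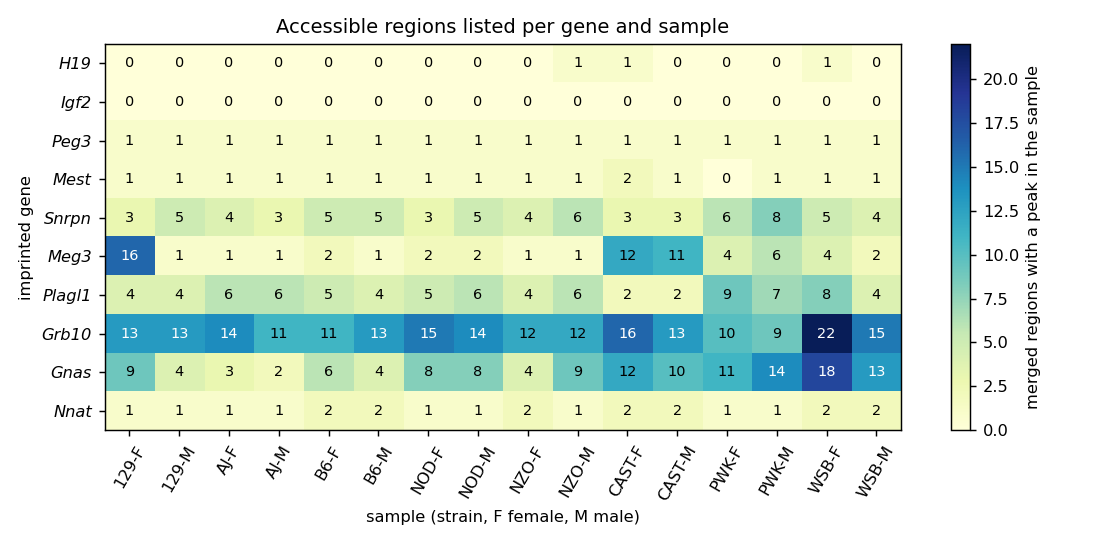
Number of merged regions with a peak (colour and printed value) for each imprinted gene (rows) in each sample (columns, F female, M male). Igf2 is at 0 throughout, Meg3 reaches 16 in the 129 female, and Grb10 and Gnas reach 22 and 18 in the WSB female, the sample with the longest list.

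Peg3 encodes a paternally expressed zinc finger protein. It had a single merged region, chr7:6693030-6733109, which was 40080 bases wide and was listed in all samples. Its width came from the 129 female, in which 1 peak of 39466 bases spanned the locus, whereas the other samples had 9 to 24 peaks there. The highest summit fell at the same base, within 1 base, in all 16 samples, and it lay 7343 bases past the 3′ end of Peg3 and 99 bases upstream of the start of Zim1, a maternally expressed zinc finger gene. The signal that the region carried was therefore measured at the start of Zim1. It ran from 6.09 in the 129 female to 12 in the NOD male, with a mean of 8.89 ± 1.88 (SD, n = 16), the highest of the 14 shared regions. Both NOD samples, at 11.6 and 12, lay above all others, a pattern that 2.24% of all shared regions had, and strain was not past the threshold (limma adjusted p = 0.17).

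The peak at the Peg3 promoter itself was separate in 15 samples. Its summit lay 1617 to 1851 bases inside the annotated gene. The scaled signals in the female and the male were 4.77 and 5.75 in AJ, 4.42 and 4.69 in B6, 6.02 and 5.11 in NOD, 4.51 and 5.15 in NZO, 4.17 and 4.54 in CAST, 4.34 and 3.97 in PWK, and 4.19 and 4.49 in WSB, with 5.51 in the 129 male. The mean was 4.78 ± 0.608 (SD, n = 15). When the regions were merged anew without the 129 female, the promoter region (chr7:6726487-6733109) was tested on its own and strain was not past the threshold (limma adjusted p = 0.558), nor was it at the region of the Zim1 summit (adjusted p = 0.115). A region between them, chr7:6714200-6716362, had an adjusted p of 0.0375 for strain in that fit, in which 31.4% of all regions passed.

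**Figure D3:**
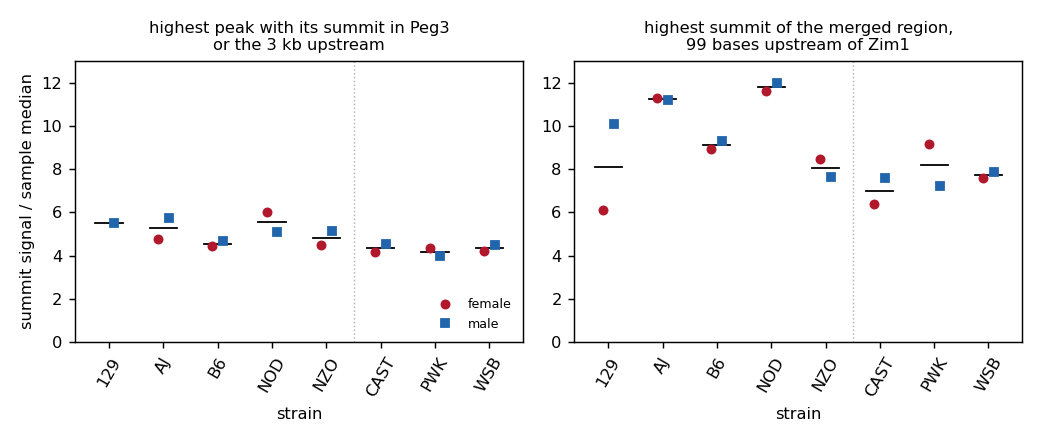
Scaled summit signal by strain at the Peg3 promoter peak (left) and at the highest summit of the merged region near Zim1 (right), with females as circles, males as squares and the strain mean as a bar. Promoter values lie between 3.97 and 6.02, and those near Zim1 between 6.09 and 12; the 129 female has no separate promoter peak.

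To ask whether strains differed in accessibility at imprinted genes, the 14 shared regions were read from a limma fit of strain and sex over all shared regions. Strain passed the threshold, an adjusted p under 0.05, at 5 of the 14, or 35.7%, and at 35.7% of all 40940 regions tested. The imprinted regions were thus called at the rate of the background. The 5 were 1 region of Plagl1, 2 of Grb10, 1 of Gnas and 1 of Nnat, and the shared regions of Peg3, Snrpn and Meg3 were not among them. The number called without any centring was 11 of 14, beside 63.2% of all regions. When regions called in at least 2 samples entered the fit, none of these 5 regions passed, with adjusted p from 0.0588 to 0.173. With regions called in at least 12 samples, the calls at Grb10 (chr11:11972997-11973916), Gnas and Nnat were lost, with adjusted p of 0.0835, 0.117 and 0.0701. No region was called for sex or for strain class, as given further on.

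Plagl1, also known as Zac1, encodes a paternally expressed zinc finger transcription factor. It had 15 regions. A region at the first base of the annotated gene was listed in the PWK female alone. The most accessible region, chr10:13090309-13091686, held 22 annotated transcript starts, with the median summit 18 bases upstream of the nearest, and had a CpG observed over expected ratio of 0.781 beside a median of 0.265 for all shared regions. The scaled signals in the female and the male were 2.79 and 3.12 in 129, 5.18 and 4.35 in AJ, 3.07 and 3.17 in B6, 4.42 and 4.68 in NOD, 2.48 and 2.29 in NZO, 1.88 and 2 in CAST, 3.89 and 4.03 in PWK, and 2.95 and 3.52 in WSB. CAST lay below all other samples, which held for CAST at 8.4% of all shared regions, and AJ and NOD were highest and overlapped each other. The means were 4.77 ± 0.593 (SD, n = 2) in AJ and 1.94 ± 0.0867 in CAST, a 2.43-fold difference on the log2 scale, and strain passed the threshold (limma adjusted p = 0.00629, and 0.00299 with GC bins). The call was lost without CAST (adjusted p = 0.0671), without centring (0.0743) and with the mean signal of the peak in place of its summit (0.176).

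A second shared Plagl1 region, chr10:13087173-13087698, lay in an intron 2993 bases from the nearest Plagl1 transcript start. It was also lowest in CAST (0.387 and 0.426) and highest in NOD (0.826 and 1.23), and it narrowly missed the threshold (limma adjusted p = 0.0574). The strain means of the pair had an r of 0.797 over 8 strains, a description only, since both were measured in the same libraries. A further intronic region, chr10:13097630-13098262, was listed in 12 samples. It had no peak in either CAST sample, in the PWK female or in the WSB male, and it reached 1.31 and 1.16 in AJ.

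Grb10 encodes an adaptor that binds the insulin receptor, and it is transcribed from the maternal copy in most tissues and from the paternal copy in neurons, where another promoter is used. It had 31 regions, the most of the 10 genes, with 6 shared by all samples and between 9 listed in the PWK male and 22 in the WSB female. The start region, chr11:12035489-12040199, had scaled signals of 1.62 and 1.78 in the 129 female and male, 1.69 and 1.55 in AJ, 1.2 and 1.6 in B6, 1.66 and 1.52 in NOD, 1.28 and 1.16 in NZO, 0.755 and 0.904 in CAST, 0.484 and 1.28 in PWK, and 1.22 and 1.16 in WSB. CAST and the PWK female were lowest, and all 7 neighbouring pairs of strains overlapped. The limma adjusted p for strain was 0.0705, which became 0.0387 with GC bins, 0.0434 with a pseudocount of 10, 0.0137 without centring and 0.193 without CAST. Strain passed the threshold here in 5 of the 24 fits that left out a sample or a strain.

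The most accessible Grb10 region, chr11:12025291-12026927, overlapped 2 transcript starts inside the gene and was the richest in CpG of the 14 shared regions, with an observed over expected ratio of 0.969. This is where the methylated island of the gene is known to lie. The scaled signals in the female and the male were 2.43 and 3.25 in 129, 2.88 and 3.58 in AJ, 2.63 and 3.96 in B6, 3.3 and 3.71 in NOD, 3.2 and 1.73 in NZO, 1.81 and 2.56 in CAST, 1.45 and 1.75 in PWK, and 2.01 and 2.95 in WSB. Both PWK samples were low, and the NZO male, at 1.73, fell between them. Strain was not past the threshold (limma adjusted p = 0.101). The limma adjusted p was 0.107 with GC bins, 0.372 without PWK and 0.0254 without any centring, a setting in which 63.2% of all regions passed. Strain passed at this region in 3 of the 24 fits that left out a sample or a strain.

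Strain passed the threshold at 2 neighbouring intronic regions deeper in Grb10. At chr11:11974491-11975498, the scaled signals in the female and the male were 1.53 and 2.22 in 129, 1.94 and 3.11 in AJ, 2.08 and 2.22 in B6, 2.51 and 2.18 in NOD, 1.63 and 1.33 in NZO, 1.64 and 1.62 in CAST, 0.597 and 0.875 in PWK, and 1.51 and 1.91 in WSB. Both PWK samples lay below the 14 others, and the remaining strains overlapped from each to the next. The fold between AJ and PWK was 3.34 (limma adjusted p = 0.00638).

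At chr11:11972997-11973916, which lies beside it, the scaled signals were 2.12 and 3.17 in the 129 female and male, 2.42 and 3.15 in AJ, 2.11 and 2.51 in B6, 2.76 and 2.57 in NOD, 2.1 and 1.53 in NZO, 1.9 and 1.76 in CAST, 1.26 and 1.09 in PWK, and 2.09 and 2.07 in WSB. Both PWK samples were again below all others, and AJ exceeded PWK by 2.33-fold (limma adjusted p = 0.0305). PWK stood below all other samples at 3.26% of all shared regions and at 2 of the 14 here, and these 2 are neighbours. Without PWK the adjusted p values were 0.183 and 0.222. The second call was also lost on leaving out the AJ male or any single sample of NOD, CAST, PWK or WSB, with adjusted p from 0.0607 to 0.11.

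**Figure D4:**
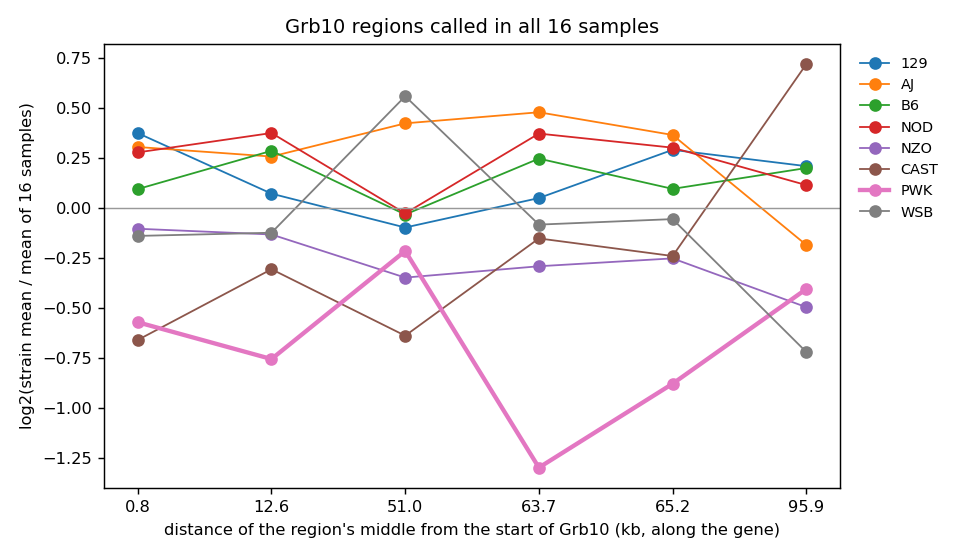
Strain mean of the scaled signal at the 6 Grb10 regions shared by all samples, as the log2 ratio to the mean of the 16 samples (vertical axis), against the distance of the region from the start of the gene (horizontal axis, kb, evenly spaced). PWK, drawn thick, is the lowest strain at 3 of the 6 regions and lies below the mean at all 6, while CAST is highest at the last.

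A region in exon sequence of Grb10, chr11:11968525-11970560, had a peak in 14 samples and none in either PWK sample, with values of 0.205 to 0.436 where it was listed. In all, 4 of the 55 regions of imprinted genes that were listed in 2 to 15 samples had a peak in both samples or in neither sample of every strain (7.27%, beside 17.8% of such regions over all autosomes). The low PWK values continued beyond the gene, a comparison chosen after the Grb10 values were seen. PWK had the lowest strain mean at 3 of 6 shared Grb10 regions, at 6 of 10 in Ddc and at 9 of 9 in Cobl, its neighbours on chromosome 11, beside 11.2% of all shared regions. The part of alignment to the B6 genome in these low PWK values was not tested. The other 2 shared regions of Grb10 were not past the threshold. At chr11:11942400-11943101 the highest strain mean was that of CAST (0.661 ± 0.0925, SD, n = 2) and the lowest that of WSB (0.244 ± 0.0247), with a limma adjusted p of 0.119. At chr11:11987282-11988056 WSB was highest (0.786 ± 0.0353) and CAST lowest (0.343 ± 0.0893), with an adjusted p of 0.0879.

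Gnas encodes the stimulatory G protein subunit that links hormone receptors such as that of GLP-1 to cyclic AMP, and it lies in a cluster with several alternative first exons. It had 25 regions, of which the WSB female listed 18 and the AJ male 2, and 2 were shared by all samples. The region with the highest signal, chr2:174327101-174328129, overlapped 6 transcript starts, at the alternative first exon known as 1A, whose maternal copy is methylated. The scaled signals in the female and the male were 1.38 and 0.681 in 129, 0.492 and 0.255 in AJ, 0.607 and 0.723 in B6, 1.56 and 1.41 in NOD, 0.864 and 1.22 in NZO, 0.925 and 1.02 in CAST, 1.03 and 2.59 in PWK, and 1.06 and 1.09 in WSB. Both AJ samples lay below all others, which held for AJ at 3.55% of all shared regions, and the PWK male stood far above its female. PWK exceeded AJ by 4.43-fold on the log2 scale, and strain passed the threshold (limma adjusted p = 0.0252, and 0.0153 with GC bins). The PWK mean joins 1.03 in the female with 2.59 in the male, the sample with the lowest median signal. The part of that library in the fold was not tested. The call was lost without AJ (adjusted p = 0.183), without the AJ male (0.123), and without any single NOD or CAST sample (0.0519 to 0.0582).

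At the main Gnas promoter, neither AJ sample had a listed peak. This region, chr2:174328603-174332399, held 4 transcript starts and had a peak in the 14 other samples. The scaled signals elsewhere were 0.793 and 0.536 in the 129 female and male, 0.381 and 0.337 in B6, 1.08 and 0.976 in NOD, 0.444 and 0.927 in NZO, 1.07 and 0.846 in CAST, 0.935 and 1.41 in PWK, and 0.925 and 0.875 in WSB. B6 was thus the lowest of the strains with a peak. The AJ male had the lowest GC slope of all samples and the shortest list, and these regions had a GC content of 62.8% and 60.2%; the part of GC in the result at the promoter was not tested.

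At the annotated start of Gnas, where the Nesp transcript begins and which its antisense partner Nespas overlaps, a region (chr2:174284000-174284965) was listed in 10 samples. It had no peak in 129 or AJ, in the B6 male or in the NZO female, and the highest value was 0.455 in the WSB male. An exonic region at chr2:174299469-174300249 was listed in 5 samples, all of them wild-derived, with values from 0.132 to 0.387. An intronic region at chr2:174316676-174316895 was listed in both PWK samples (0.839 and 0.75), in both WSB samples (0.377 and 0.352) and in the NZO male (0.382). Each sample with a peak at either site had a list of at least 121407 peaks. The classical lists other than that of the NZO male held at most 117672. The part of list length in these listings was not tested. The other shared region, chr2:174343809-174344429, was intronic, and the sequence also belonged to Gm20721. It ranged from 0.415 in the AJ female to 1.26 in the NOD male and was not past the threshold (limma adjusted p = 0.0944). The strain means of the shared pair had an r of 0.82 over 8 strains, a description only.

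Nnat encodes neuronatin, a small paternally expressed membrane protein known in beta cells for its part in insulin secretion, and the gene lies within an intron of Blcap. Its shared region, chr2:157561159-157561667, was exonic, with summits around 365 bases from the nearest Nnat start. No sample had a peak over the RefSeq promoter window itself. The scaled signals in the female and the male were 0.828 and 0.797 in 129, 0.431 and 0.364 in AJ, 0.607 and 0.422 in B6, 0.512 and 0.72 in NOD, 0.741 and 1.44 in NZO, 1.42 and 1.15 in CAST, 0.694 and 0.625 in PWK, and 0.604 and 0.614 in WSB. CAST and the NZO male were high and AJ was low, and CAST exceeded AJ by 3.14-fold (limma adjusted p = 0.0164). The call was lost with GC bins (adjusted p = 0.0583), without the CAST female (0.0753), without CAST (0.098) and without AJ (0.054). The region was 60.5% GC, and the NZO male, with the steepest GC slope, also had the highest acinar, duct, leukocyte and endothelial sums; the part of these in its value was not tested.

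A region upstream of Nnat, chr2:157558227-157558806, was listed in both samples of B6 (0.25 and 0.241), CAST (0.302 and 0.213) and WSB (0.179 and 0.159) and in the NZO female (0.21). It had no peak in 129, AJ, NOD or PWK, and it too lies within Blcap.

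**Figure D5:**
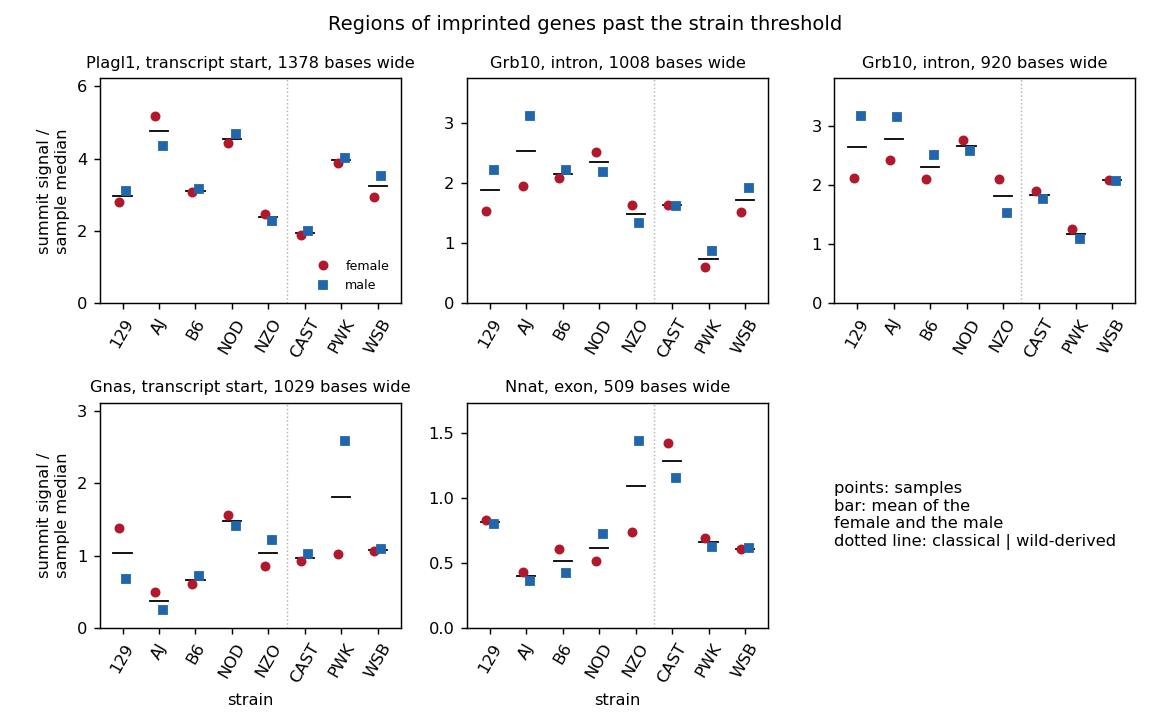
Scaled summit signal by strain at the 5 regions of imprinted genes past the strain threshold, with females as circles, males as squares and the mean of both as a bar; the dotted line divides classical from wild-derived strains. CAST is lowest at Plagl1, PWK at both Grb10 intronic regions and AJ at Gnas and Nnat.

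To ask whether the sexes differed, the sex term of the same fit was read. No imprinted region was called for sex, 0 of 14, and 0% of all shared regions were called by limma. At an unadjusted threshold of 0.05, 0 of the 14 and 1621 of the 40940 regions passed. The female minus male differences on the log2 scale ran from -0.35 (SE 0.164) at the intronic Plagl1 region, where the female was higher in 1 of 8 strains, to 0.21 (SE 0.2) at the Grb10 region chr11:11942400-11943101, where it was higher in 6 of 8. At the Snrpn start the difference was -0.14 (SE 0.145).

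Wild-derived and classical strains were compared on the 8 strain means. No imprinted region was called, 0 of 14, beside 0.0342% of all shared regions, and 3 of the 14 and 4960 of the 40940 passed an unadjusted threshold of 0.05. The 3 were all regions of Grb10, and r between their strain means ran from 0.775 to 0.947 over 8 strains. The lowest adjusted p was that of the Grb10 start region, where the wild-derived strains were lower by 0.69 on the log2 scale (wild-derived minus classical -0.69, SE 0.224, limma adjusted p = 0.252). The scaled signal there was 1.51 ± 0.216 (SD, n = 10 samples) in classical and 0.967 ± 0.31 (n = 6) in wild-derived samples. At the Gnas exon 1A region the difference was 0.55 (SE 0.389, adjusted p = 0.62) in the other direction.

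The start window of a gene was taken as the 3 kb upstream and the first 500 bases. A region in this window was shared by all 16 samples at 3 of the 10 genes, Peg3, Meg3 and Grb10, beside 51.6% of 20807 protein-coding autosomal genes and 50.9% of 55 other imprinted genes. No region was listed in the window of 3 members, namely Igf2, Mest and Snrpn, beside 21.1% of the protein-coding genes and 20.0% of the other imprinted ones. Snrpn, Plagl1 and Gnas had their most accessible region at later transcript starts, outside this window, and these regions were shared by all 16 samples. Over RefSeq promoter windows, a region shared by all 16 samples was found at Gnas, Grb10, Meg3, Peg3, Plagl1 and Snrpn. That share is not given here for all genes. H19 and Meg3 are noncoding, whereas the 51.6% and 21.1% are of protein-coding genes. Over the 8 strain means, the start region most like that of Meg3 belonged to Mydgf (r = 0.9925), the one most like that of Grb10 to Sgo2a (r = 0.9803), and the one most like the Peg3 region, read at the Zim1 summit, to Tmtc3 (r = 0.9861). Across the 16 samples, r was 0.789 for Meg3, 0.928 for Grb10 and 0.915 for Peg3. The candidates were 9366 start regions for Meg3 and Grb10 and 9365 for Peg3, all from the same libraries, and 222, 56 and 244 of them exceeded 0.9, so these likenesses are descriptions.

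Other imprinted genes were followed from a list of 57, of which 55 were matched on the autosomes. They had 697 regions besides those above, and 126 were shared by all samples. Strain passed the threshold at 50 of the 126, or 39.7%, beside 35.7% of all regions, and none passed for sex or strain class. With GC bins, where 41.0% of all regions passed, some of these calls were lost (limma adjusted p from 0.0562 to 0.146). They were the called regions of Calcr and Cpa4, Gab1 at chr8:80772800-80773399 and Phactr2 at chr10:13429690-13430025. Calls gained with GC bins are not given for this list. CAST and PWK were each the lowest strain at 11 of the 50 regions, beside 30.5% and 13.4% of all regions past the threshold. The 10 regions with the lowest adjusted p belonged to Usp29 (3, 1 of which also overlapped Zim3), Cobl (2), Gab1, Rasgrf1, Tbc1d12, Slc22a2 and Sfmbt2. Usp29, which is paternally expressed and shares a bidirectional promoter with Peg3, was low in PWK at chr7:6759553-6761417 (0.333 ± 0.015, SD, n = 2, beside 3.1 ± 0.451 in NOD, limma adjusted p = 0.000115). At chr7:6959593-6960784 in the same gene, CAST was low (0.529 ± 0.186) and AJ high (4.26 ± 0.513, adjusted p = 0.000236). Another Usp29 region, chr7:6773731-6775319, was lowest in CAST (0.558 ± 0.136) and highest in 129 (1.99 ± 0.302, adjusted p = 0.00186).

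At Gab1, an adaptor of growth factor receptors, PWK was highest (2.65 ± 0.307) and CAST lowest (0.498 ± 0.0237) at chr8:80817710-80818776 (limma adjusted p = 0.000195). At Cobl, an actin nucleator next to Grb10, PWK was lowest at both regions, with 0.923 ± 0.2 beside 3.35 ± 0.168 in NZO (adjusted p = 0.000233) and 1.49 ± 0.326 beside 5.13 ± 1.08 in AJ (adjusted p = 0.00301). At Rasgrf1, a paternally expressed exchange factor of Ras, PWK was lowest (0.608 ± 0.244) and CAST highest (3.13 ± 0.456, adjusted p = 0.000723). Tbc1d12 was lowest in B6 (1.77 ± 0.193) and highest in AJ (5.32 ± 0.32, adjusted p = 0.00198). Slc22a2, an organic cation transporter, was lowest in NOD (0.358 ± 0.0794) and highest in B6 (1.36 ± 0.0478, adjusted p = 0.00311). Sfmbt2, a Polycomb group protein, was lowest in CAST (0.229 ± 0.0708) and highest in AJ (1.08 ± 0.215, adjusted p = 0.00358).

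Factors that set, keep or read imprints were a list of 16 genes with 125 regions, of which 25 were shared by all samples. Strain passed the threshold at 4 of the 25 (16%, beside 35.7% of all regions). One was in Hells, a chromatin remodeller, where B6 was lowest (1.92 ± 0.601, SD, n = 2) and AJ highest (6.02 ± 0.00198, limma adjusted p = 0.00339). The other 3 were in Dnmt3a, the enzyme that lays down methylation in germ cells. At chr12:3839332-3840199 PWK was highest (0.732 ± 0.151) and 129 lowest (0.202 ± 0.0421, adjusted p = 0.00699), at chr12:3870853-3872049 CAST was highest (1.21 ± 0.0947) and AJ lowest (0.438 ± 0.0544, adjusted p = 0.0278), and at chr12:3894154-3895376 PWK was highest (3.07 ± 0.361) and AJ lowest (1.39 ± 0.142, adjusted p = 0.037). With GC bins the last 2 had adjusted p values of 0.113 and 0.082.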

How the data were processed

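ATAC-seq was done on islets of 16 samples, 1 female and 1 male from each of 8 strains. Per the labels and the study's methods, the authors trimmed reads with cutadapt 2.0, aligned them to mm10 with Bowtie2 2.3.4.1, removed duplicates with Picard 2.9.2 and called the peaks of each sample separately in MOSAiCS (false discovery rate 0.05). Whether read ends were shifted for the transposase was not given in the sources used here. The deposited signal is the summit value of a peak, not scaled to depth, beside a deposited mean signal, and the deposited −log10 values give the significance of a peak or, in the strain lists, its irreproducible discovery rate, kept at 0.05.

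Peaks were merged, and the highest summit in a region was a sample's signal. Genes came from GENCODE M21, promoter windows from RefSeq (GRCm38.p6, with at least 1 window for 9 of the 10 genes) and sequences from the GRCm38.p6 genome. The test was limma 3.58.1 (R 4.3.3) on log2(signal + 1) of the 40940 autosomal regions called in all 16 samples, centred on each sample's median: a moderated F test for strain and a test for sex in 1 model, and strain class on the 8 strain means. P-values were adjusted by Benjamini-Hochberg over all these regions. The pseudocount of 1 understates changes at low signal. The code of the fits was checked on simulated data with independent noise and large added changes, which does not give the power in these libraries.

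All 10 genes were described, each by its start regions, its most accessible region, its shared region with the lowest adjusted p and its region divided most cleanly by strain; a few more were picked with their values in view. The genes and lists were chosen with earlier results of these data known. Alternatives varied centring, pseudocount, filters, peak thresholds, merging and the samples; GC bins and the merging without the 129 female were added after the data were seen.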

Additional observations from a re-analysis of the deposited data

Results flagged for a closer look

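In 28 groups examined, the 10 classical and the 6 wild-derived samples at each of the 14 shared regions, 2 had a sample whose gap to its nearest neighbour exceeded Dixon's 95% limit; chance gives about 1 in 20 groups. At the Gnas exon 1A region, the PWK male, the sample with the lowest median signal, had 2.59, beside 0.925 to 1.09 in the other wild-derived samples. At the Nnat region, the NZO male had 1.44, beside 0.364 to 0.828 in the other classical samples.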

How the results depend on the processing

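The number of imprinted regions past the strain threshold, 5 of 14, was 11 of 14 without centring, 15 of 69 over regions called in at least 2 samples, 3 of 6 with the stricter peak threshold and 1 of 2 where peaks had to cover 0.5 of the region. In the same settings 63.2%, 28.0%, 35.4% and 32.6% of all regions passed; the fewer regions tested under the latter 2 follow from their construction, and the cause of the other changes was not tested. The count lay between 2 and 9 when a sample or a strain was left out: it was 2 without CAST (15.5% of all regions) or the CAST female (18.7%), 3 without the CAST male (19.2%), the NOD female (23.8%) or the NOD male (24.0%), 9 without NZO (49.7%) or the NZO female (60.1%), and 8 without the NZO male (46.2%), 129 (35.0%) or the 129 male (36.5%). Under the other alternatives it was 5 of 24 over regions called in at least 12 samples (18.3%), 6 of 13 with equal numbers of peaks (35.1%), 7 of 17 with regions built without the 129 female (31.4%), 7 of 14 with a pseudocount of 10 (41.6%), and 5 of 14 with quantile normalisation (33.3%), the mean signal (27.8%), merging of overlapping peaks alone (35.7%), strain alone in the model (39.4%) or GC bins (41.0%). Sex gave 0 in every setting, and strain class gave 0 in all but 1, with 3 of 69 over regions called in at least 2 samples, beside 1.6% of all regions. The mean number of imprinted regions listed per sample, 39.2, became 18.8 with the stricter threshold and 26.5 with equal numbers of peaks. The share of genes with a shared start region, 30.0%, became 10.0% with the stricter threshold, beside 41.7% of protein-coding genes. Strain and sex were both in the model, so the sex test compared the female and the male within each strain. For strain, 5 regions passed without sex in the model. Where 1 sample of a strain was left out, its partner was assumed to vary like the other strains. With 2 samples per strain and no read total per sample, a missing peak may be a weak one.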
